A study of Mus musculus with 12 samples.

Results

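A set of 10 marker genes of the kidney proximal tubule was followed in cultured mouse proximal tubule (PT) cells with and without the type II TGF-β receptor (TβRII, encoded by Tgfbr2). The genes are Lrp2, Cubn, Aqp1, Ggt1, Dpp4, Anpep, Alpl, Miox, Gatm and Pck1, 10 of the 25514 genes counted, and they were taken as a list of known brush border proteins and enzymes. Each gene was represented by its transcript with the highest total count over the 12 libraries. The cells were isolated from male mice and are conditionally immortalized, which means that they carry a temperature-sensitive T antigen (the H2ts6 allele) and divide at 33 °C with interferon gamma. They were moved to 37 °C for 5 days before the experiment, per the methods without interferon gamma, and all 4 groups share this allele. TβRII flox/flox PT cells have the floxed Tgfbr2 alleles intact, and TβRII-/- PT cells were made from floxed cells by adeno-Cre treatment in culture. Each genotype was sampled untreated, in normal culture medium, or after 24 h with H2O2, with 3 libraries in each group. The sample labels give the H2O2 dose as 200 mM, whereas the study's methods give it in micromolar. The methods also describe serum starvation before H2O2, so H2O2 and serum removal cannot be told apart here. The methods give independent experiments or biological replicates as the general practice for cell culture work, and no source used here says which the 3 libraries of a group are, so p-values measure the spread between these libraries, and the deletion cannot be told apart from anything else that separates the 2 cell populations.

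The proximal tubule reabsorbs most of what the glomerulus filters, and its apical surface carries a dense brush border of microvilli. Megalin (Lrp2) and cubilin (Cubn) sit at the base of these microvilli and take up filtered proteins by endocytosis, and aquaporin 1 (Aqp1) lets water cross the membrane. The ectoenzymes of the brush border (Ggt1, Dpp4, Anpep, Alpl) cut glutathione, peptides and phosphate esters in the lumen, while Miox, Gatm and Pck1 are intracellular enzymes of inositol breakdown, creatine synthesis and gluconeogenesis.

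The regions upstream of the genes were searched for a short motif of HNF4, a transcription factor known to act on many proximal tubule genes. Upstream sequences of RefSeq (GRCm38.p6, the build of the files) were found for all 10 genes, in 14 windows of 250 bases. The HNF4 core CAAAGT, or its complement ACTTTG, was in 4 of 14 windows and in 12.6% of all 32851 RefSeq windows of this length. The windows shown are those of Lrp2 and Ggt1, 2 of the 4 members whose counts were lower in TβRII-/- PT cells. Each is cut where the first annotated transcript begins, runs 5′ to 3′ on the gene's own strand, and has motif matches in capitals. The Lrp2 window lies at chr2:69586066-69586279 on the minus strand and the Ggt1 window that starts its representative transcript at chr10:75568412-75568633 on the plus strand.
Lrp2: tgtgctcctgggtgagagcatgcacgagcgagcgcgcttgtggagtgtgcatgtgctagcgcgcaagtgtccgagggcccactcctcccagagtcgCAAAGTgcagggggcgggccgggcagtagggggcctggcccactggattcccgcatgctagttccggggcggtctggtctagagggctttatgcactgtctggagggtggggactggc
Ggt1: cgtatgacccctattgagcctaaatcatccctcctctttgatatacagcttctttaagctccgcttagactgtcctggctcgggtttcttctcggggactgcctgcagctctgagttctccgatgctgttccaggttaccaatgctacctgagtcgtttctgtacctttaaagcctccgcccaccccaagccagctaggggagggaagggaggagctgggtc
The HNF4 core was in the Lrp2 window, while the printed Ggt1 window did not hold it. Another of the 4 Ggt1 windows and both Alpl windows, not printed, also held it. The windows of Cubn and Aqp1, the other members with lower counts, did not hold it. Hnf4a had 2 and Hnf4g 7 counts over all 12 libraries. A match is a run of letters, not a measured site.

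Levels are given as normalized counts, which are transcript counts scaled to the mean library size of the 12 libraries. Totals over the representative transcripts were 15870155 to 20857618 counts per library. Of the 10 genes, 7 passed the filter on low counts and were tested, among 12971 genes tested in all. Dpp4, Miox and Pck1 did not pass, with at most 3 counts in every library. Anpep passed only through the H2O2 groups, in which all 6 libraries reached 10 counts, against 1 of 3 untreated flox/flox libraries and none of the untreated TβRII-/- libraries. Ggt1 passed only through the flox/flox groups, in which all 6 libraries reached 10 counts, against 0 of the 6 TβRII-/- libraries. A gene that passes through the groups where it is high is bound to differ. Counts and medians that include Anpep for H2O2 or Ggt1 for genotype are therefore given as descriptions.

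Tgfbr2 itself was checked first. Its counts run over the whole transcript and are not limited to the deleted part, whose position is not given in the sources used here, and it remained well counted in TβRII-/- PT cells. Untreated libraries held 9248, 8369 and 7562 normalized counts in flox/flox and 6782, 6675 and 6358 in TβRII-/- PT cells. With H2O2 they held 13275, 13918 and 13707 against 7221, 7311 and 7116. The genotype groups did not overlap, with log2 fold changes of -0.35 (SE 0.07, adjusted p = 2.81e-05) untreated and -0.92 (SE 0.07, adjusted p = 6.62e-14) with H2O2.

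The markers divided into well-counted and near-absent genes. Per kilobase of transcript, Aqp1 was the highest of the 10 in every group, followed by Lrp2 and Gatm, and these neighbours in the order did not overlap between libraries in any group. In untreated flox/flox PT cells the level was 2387 ± 263 (SD, n = 3) normalized counts per kb for Aqp1, 1118 ± 172 for Lrp2 and 390.2 ± 27.5 for Gatm. Ggt1 followed at 32.2 ± 6.4 and Cubn at 10.9 ± 1.3, and then Alpl at 3.01 ± 1.63 and Anpep at 1.72 ± 1.36, whose libraries overlapped. Aqp1 exceeded 98.5% of protein-coding genes per kb in that group, Lrp2 95.8% and Gatm 85.3%, while Ggt1 exceeded 53.6% and Cubn 48.8%. In untreated TβRII-/- PT cells the order below Gatm became Alpl, Cubn, Ggt1 and Anpep, with Alpl and Cubn overlapping. With H2O2, Alpl, Ggt1 and Cubn overlapped in flox/flox PT cells, and Alpl, Anpep, Cubn and Ggt1 each overlapped the next in TβRII-/- PT cells. Lrp2 and Aqp1 together made up 91.3% to 97.7% of the members' summed counts in each library, so the sum over the members mainly followed these 2 genes.

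**Figure D1:**
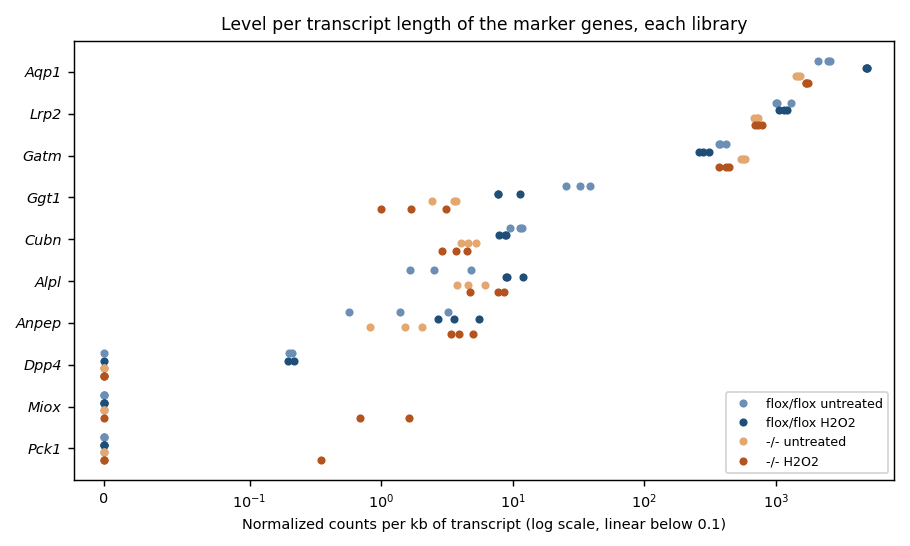
Normalized counts per kb of transcript (horizontal axis, log scale, linear below 0.1) of the 10 marker genes in each of 12 libraries, coloured by group. Aqp1, Lrp2 and Gatm lie above 200 in every library, the other tested genes lie below 40, and Dpp4, Miox and Pck1 lie at 0 in most libraries.

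The first comparison asked how the markers differed between genotypes without injury. A gene was called where its adjusted p was under 0.05 and its fold was at least 1.5. In untreated TβRII-/- PT cells Lrp2, Cubn and Aqp1 were lower, 3 of the 6 tested members whose filter did not depend on genotype, and 0 were higher. Ggt1, which passed only through the flox/flox groups, was lower too, which makes 4 of 7. Among all genes tested, 11.8% were called lower and 16.3% higher. The median log2 fold change of the 7 was -0.65, against 0.01 over all genes tested, and it is a description because it includes Ggt1. With H2O2 the same 4 genes were lower and 0 were higher, where 13.4% of all genes were called lower and 17.3% higher. The median, again with Ggt1 included, was -0.63 against 0.02. In bulk libraries fewer cells of a type and less RNA per cell cannot be told apart. Markers of epithelial and other cell types also differed between the genotypes, with values given further on.

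Gene positions below are those of GRCm38.p6, each followed by the transcript counted for the gene. Lrp2 (chr2:69424335-69586029, ENSMUST00000080953) encodes megalin, the large endocytic receptor. Its normalized counts were 20339, 15938 and 15562 in untreated flox/flox libraries and 11414, 10554 and 11080 in untreated TβRII-/- libraries. The H2O2 libraries held 17789, 18780 and 16332 in flox/flox and 11370, 10729 and 12151 in TβRII-/- PT cells. Every TβRII-/- library was below every flox/flox library. Lrp2 was 1.57 times lower untreated (log2 -0.65, SE 0.08, adjusted p = 1.86e-08) and 1.54 times lower with H2O2 (log2 -0.63, SE 0.08, adjusted p = 3.22e-08). These values lie near the fold limit of 1.5. Without the flox/flox untreated replicate 1, the highest of its group, the untreated log2 fold change was -0.52, and without the TβRII-/- H2O2 replicate 2 the H2O2 value was -0.58, both under the limit. Lrp2 did not pass with H2O2 in either genotype, at log2 0.03 (95% CI -0.13 to 0.19) in flox/flox and 0.05 (95% CI -0.11 to 0.21) in TβRII-/- PT cells.

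Cubn (chr2:13276338-13491876, ENSMUST00000091436) encodes cubilin, which has no membrane anchor of its own and relies on amnionless (Amn) and megalin for uptake. Its normalized counts were 134, 107 and 129 in untreated flox/flox libraries and 51.2, 45.5 and 59.4 in untreated TβRII-/- libraries. With H2O2 they were 99.4, 99.2 and 88.2 in flox/flox and 50.8, 41.7 and 32.8 in TβRII-/- PT cells. The genotypes were fully apart in both conditions. Cubn was 2.36 times lower untreated (log2 -1.24, SE 0.17, adjusted p = 1.45e-07) and 2.28 times lower with H2O2 (log2 -1.19, SE 0.18, adjusted p = 7.37e-07). The H2O2 libraries of flox/flox PT cells lay below the untreated ones, but the difference of -0.36 on the log2 scale did not pass (SE 0.16, adjusted p = 0.0609), nor did -0.31 in TβRII-/- PT cells (SE 0.20, adjusted p = 0.214). Amn held 5 counts in all 12 libraries together. All 4 Lrp2 and all 3 Cubn transcripts with counts had lower summed counts in TβRII-/- PT cells in both conditions, although transcripts of a gene share reads and are not separate measurements.

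Aqp1 (chr6:55336299-55348555, ENSMUST00000004774), the water channel, differed with both genotype and H2O2. Untreated libraries held 7389, 7703 and 6217 normalized counts in flox/flox and 4593, 4427 and 4243 in TβRII-/- PT cells. With H2O2 the flox/flox libraries held 14654, 14783 and 14396, and the TβRII-/- libraries held 5286, 5077 and 5038. All 3 flox/flox H2O2 libraries thus stood above all others, while the TβRII-/- H2O2 libraries stayed below the untreated flox/flox ones. Aqp1 was 1.61 times lower untreated (log2 -0.68, SE 0.07, adjusted p = 1.70e-10) and 2.85 times lower with H2O2 (log2 -1.51, SE 0.07, adjusted p = 3.93e-19). With H2O2 it was 2.06-fold higher in flox/flox PT cells (log2 1.04, SE 0.07, adjusted p = 5.69e-14). In TβRII-/- PT cells the log2 difference was 0.22 (SE 0.07, adjusted p = 0.0113), which passed the p threshold but not the fold limit. Without the TβRII-/- untreated replicate 3 or H2O2 replicate 1 it missed the p threshold too, with an adjusted p of up to 0.0614. The difference between the 2 responses was tested as an interaction and was -0.82 (log2, SE 0.09, adjusted p = 4.45e-07).

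**Figure D2:**
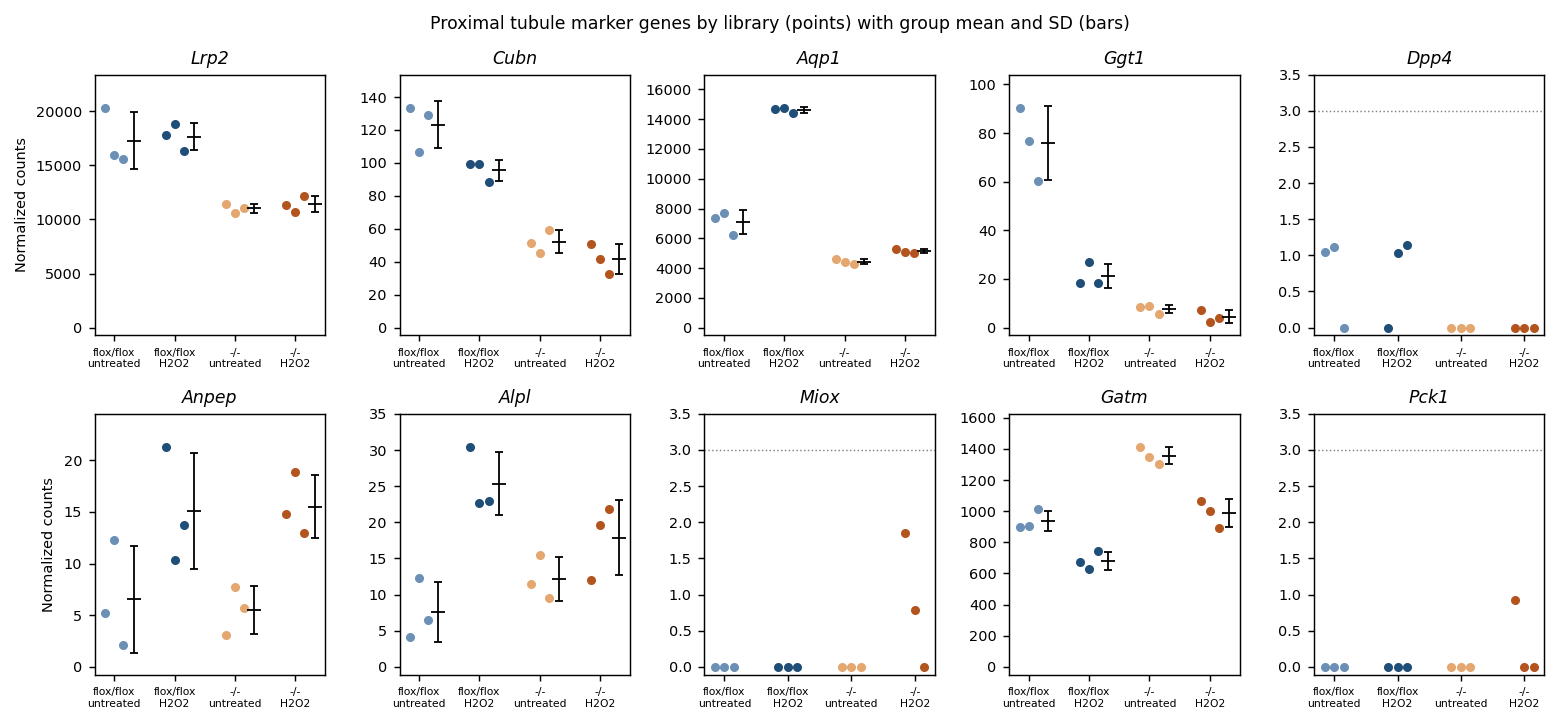
Normalized counts (vertical axes, linear, scaled per gene) of the 10 marker genes in each library, by group, with the mean and SD (n = 3) beside the points of the 7 tested genes. Lrp2, Cubn and Ggt1 points of TβRII-/- PT cells lie below those of flox/flox PT cells in the same condition, Aqp1 is highest in the flox/flox H2O2 libraries, and Dpp4, Miox and Pck1 stay under the dotted line at 3 counts.

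Among the ectoenzymes, Ggt1 (chr10:75561076-75586193, ENSMUST00000134503) had the largest fold of the tested members between genotypes. It encodes gamma-glutamyltransferase, which begins the breakdown of extracellular glutathione. Its normalized counts were 90.5, 76.8 and 60.2 in untreated flox/flox libraries and 8.37, 8.71 and 5.74 in untreated TβRII-/- libraries. With H2O2 they were 18.3, 26.9 and 18.3 in flox/flox and 7.38, 2.36 and 3.98 in TβRII-/- PT cells. The flox/flox libraries were above the TβRII-/- libraries in both conditions, and the untreated flox/flox libraries were above all others. Ggt1 was 9.86 times lower in TβRII-/- PT cells untreated (log2 -3.30, SE 0.31, adjusted p = 4.59e-11) and 4.64 times lower with H2O2 (log2 -2.21, SE 0.42, adjusted p = 2.68e-05). These genotype values are descriptions, since Ggt1 passed the filter only through the flox/flox groups. With H2O2 Ggt1 was 3.56 times lower in flox/flox PT cells (log2 -1.83, SE 0.26, adjusted p = 9.42e-07). In TβRII-/- PT cells, where it had at most 9 raw counts in a library, the log2 difference was -0.75 (95% CI -1.80 to 0.31, adjusted p = 0.264), and the interaction of 1.09 did not pass (SE 0.62, adjusted p = 0.290). All 20 Ggt1 transcripts had lower summed counts in TβRII-/- PT cells in both conditions, with reads shared among them.

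Alpl (chr4:137741731-137796384, ENSMUST00000030551) encodes tissue-nonspecific alkaline phosphatase and was counted low. Its raw counts were 4, 11 and 6 in untreated flox/flox and 11, 16 and 10 in untreated TβRII-/- libraries. With H2O2 they were 30, 22 and 20 in flox/flox and 13, 25 and 22 in TβRII-/- libraries. After scaling, the flox/flox H2O2 libraries (22.7 to 30.4 normalized counts) were above all the others (at most 21.9). With H2O2, Alpl was 3.33-fold higher in flox/flox PT cells (log2 1.73, SE 0.39, adjusted p = 0.000650). In TβRII-/- PT cells the log2 difference was 0.54 (95% CI -0.19 to 1.28, adjusted p = 0.240), and the interaction of -1.19 did not pass (SE 0.55, adjusted p = 0.179). The genotype differences were 0.68 untreated (95% CI -0.23 to 1.59, adjusted p = 0.184) and -0.51 with H2O2 (95% CI -1.16 to 0.14, adjusted p = 0.159), and neither passed.

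Anpep (chr7:79821803-79848210, ENSMUST00000107392) encodes aminopeptidase N, which removes amino acids from the ends of peptides. Its normalized counts were 5.26, 12.2 and 2.15 in untreated flox/flox and 3.14, 7.75 and 5.74 in untreated TβRII-/- libraries. With H2O2 they were 21.3, 10.3 and 13.8 in flox/flox and 14.8, 18.9 and 12.9 in TβRII-/- libraries. The flox/flox groups overlapped, whereas the TβRII-/- groups did not. H2O2 gave a log2 fold change of 1.21 in flox/flox (SE 0.48, adjusted p = 0.0425) and 1.47 in TβRII-/- PT cells (SE 0.47, adjusted p = 0.0129), both called higher. These H2O2 values are descriptions, since Anpep passed the filter only through the H2O2 groups. The flox/flox call was lost under 6 of the alternatives, with adjusted p from 0.0514 to 0.221. These were the fit without a filter on low counts and the fits without flox/flox untreated replicate 1 or 3, flox/flox H2O2 replicate 1 or 3, or TβRII-/- H2O2 replicate 1. DESeq2 gave it no adjusted p, and the unadjusted p of 0.0170 from edgeR also missed the alternative threshold of 0.01. The TβRII-/- call was lost without the untreated replicate 1 or the H2O2 replicate 2, each with an adjusted p of 0.0644. The genotype differences were -0.21 untreated (95% CI -1.40 to 0.98) and 0.05 with H2O2 (95% CI -0.74 to 0.83). Dpp4 (chr2:62330073-62412315, ENSMUST00000047812), which encodes dipeptidyl peptidase 4, had 2 counts over the untreated flox/flox libraries, 2 over the flox/flox H2O2 libraries and 0 over all 6 TβRII-/- libraries. A count of 0 allows up to 3 counts in a library, so no difference was detectable at this depth.

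Gatm (chr2:122594473-122611277, ENSMUST00000028624) encodes glycine amidinotransferase, the enzyme of the first step of creatine synthesis, and its TβRII-/- libraries held the higher counts. Its normalized counts were 896, 904 and 1014 in untreated flox/flox and 1413, 1348 and 1304 in untreated TβRII-/- libraries. With H2O2 they were 672, 630.1 and 745 in flox/flox and 1068, 1003 and 894 in TβRII-/- libraries. The genotypes did not overlap in either condition, and the H2O2 libraries lay below the untreated ones in both genotypes. The log2 difference between genotypes was 0.53 untreated (SE 0.07, adjusted p = 1.14e-07) and 0.54 with H2O2 (SE 0.07, adjusted p = 1.59e-07), folds of 1.44 and 1.45, under the limit of 1.5. Without the TβRII-/- H2O2 replicate 3 the H2O2 value was 0.60, past the limit. H2O2 gave -0.46 in flox/flox (SE 0.08, adjusted p = 1.16e-05) and -0.45 in TβRII-/- PT cells (SE 0.07, adjusted p = 5.24e-06), also under the limit. The 12 tested genes on either side of Gatm on chromosome 2, 24 in all, had a median log2 difference between genotypes of 0.44 untreated and 0.50 with H2O2, and the 961 other tested genes of chromosome 2 had medians of 0.30 and 0.30, against 0.01 and 0.02 over all genes. The Gatm differences lie near the medians of its neighbours, and the part of the chromosome's shift in them was not tested. Lrp2 and Cubn also lie on chromosome 2 and were lower, while their 24 neighbours had medians of 0.11 and 0.18 untreated. Miox (chr15:89334473-89337007, ENSMUST00000023282), which encodes myo-inositol oxygenase, had 3 counts in all, in the TβRII-/- H2O2 libraries. Pck1 (chr2:173153073-173159274, ENSMUST00000029017), which encodes the cytosolic phosphoenolpyruvate carboxykinase of gluconeogenesis, had 1 count, also in that group.

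The comparison of H2O2 with untreated cells asked which markers differed after H2O2, together with the serum removal that went with it. In flox/flox PT cells Aqp1 and Alpl were called higher and Ggt1 lower, of the 6 tested members other than Anpep. Anpep was called higher too, but it passed the filter only through the H2O2 groups and lost the call under the 6 alternatives given above. Among all genes tested 5.68% were called higher and 2.56% lower, and the median of the 7, Anpep included, was 0.03 against 0.01. In TβRII-/- PT cells 0 of the 6 members other than Anpep were called by edgeR, with Aqp1 and Gatm at an adjusted p under 0.05 and under the fold limit. Anpep was called higher, through the same filter, and not without the untreated replicate 1 or the H2O2 replicate 2. The shares among all genes were 4.56% higher and 3.76% lower, and the medians, with Anpep included among the members, were 0.05 and 0.02. For the interaction, 0 members were higher and 1 was lower (Aqp1), beside 0.640% and 1.72% of all genes. H2O2 comparisons and genotype comparisons share libraries, so their values are not independent of each other.

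**Figure D3:**
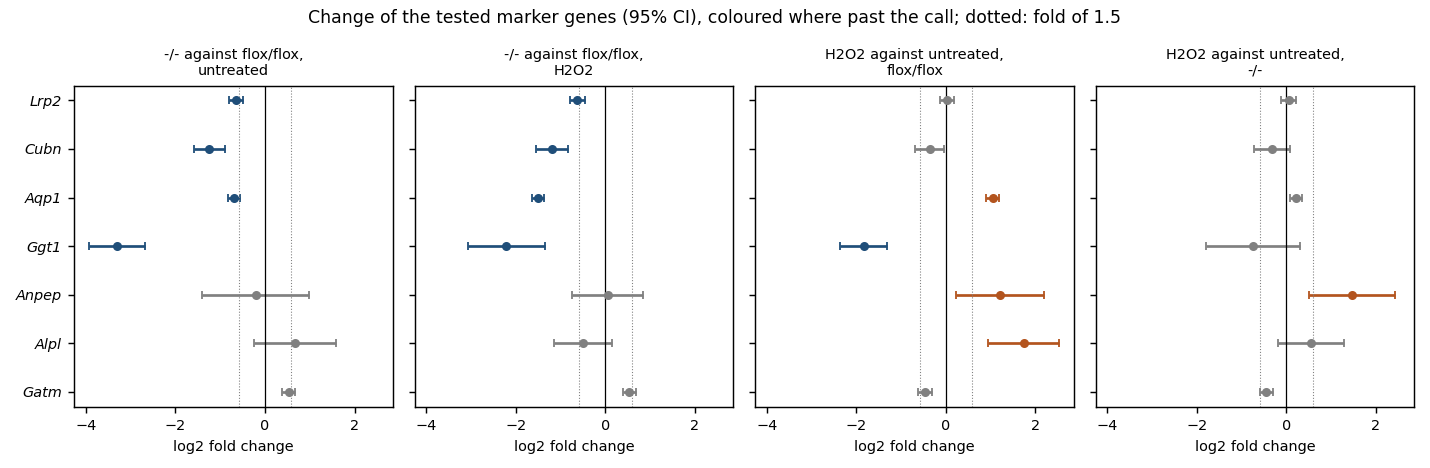
Log2 fold changes (points) with 95% confidence intervals (bars) of the 7 tested marker genes in 4 comparisons, blue where called lower, orange where called higher and grey otherwise; dotted lines mark a fold of 1.5. Ggt1, which passed the filter only through the flox/flox groups, is lowest in both genotype comparisons at -3.30 and -2.21. The H2O2 value of Aqp1 is 1.04 in flox/flox and 0.22 in TβRII-/- PT cells.

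The scaling of the libraries bears on the calls near the fold limit. With library totals alone in place of TMM factors (edgeR's trimmed mean of M-values), the median of all genes was 0.10 untreated and 0.17 with H2O2 for the genotype comparisons. Lrp2 then had log2 fold changes of -0.55 and -0.48, which are not called, and Gatm had 0.62 and 0.69, which are called higher. With H2O2 the calls between genotypes over all genes were 2897 higher and 1298 lower under library totals, against 2242 and 1743 with TMM. For the interaction they were 125 and 185, against 83 and 223. Cubn, Aqp1 and Ggt1 kept their calls in both genotype comparisons. Among the list genes named below, Vdr (-0.57, untreated genotypes) lost its call under library totals.

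Other genes of the same functions gave a mixed picture. Among those described below, Xpnpep2, Myo7b, Cdhr2, Aqp5, Fbp2, Arg2, Epcam, Cdh1 and Dcn passed the filter only through the TβRII-/- groups. Lhx1, Slc5a2 and Pdgfrb passed it only through the flox/flox groups. The counts and medians of the lists of these genes between genotypes are therefore descriptions. Of 14 genes that act with megalin and cubilin in endocytosis, 13 were tested, and 2 were lower and 2 higher in untreated TβRII-/- PT cells (median log2 0.15). Dab2, the clathrin adaptor that binds the megalin tail, was lower at 1257 against 2861 normalized counts (log2 -1.19, SE 0.06, adjusted p = 5.07e-17). Clcn5, the endosomal chloride-proton exchanger mutated in Dent disease, was lower at 5285 against 9211 (log2 -0.80, SE 0.06, adjusted p = 1.01e-12). Cltc, the clathrin heavy chain, was higher by 0.87 on the log2 scale. With H2O2 the same count of 2 lower and 2 higher held, with Dab2 at -1.30 and Clcn5 at -0.92, and 0 of the 13 were called with H2O2 in either genotype.

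Of 13 other brush border enzymes 5 were tested, and 2 were lower and 2 higher. Mme (neprilysin, a peptidase) was lower at 5532 against 10386 normalized counts (log2 -0.91), and Nt5e (the ectonucleotidase CD73) was lower at 388 against 1068 (log2 -1.46). Folh1 (a carboxypeptidase) was higher at 294 against 73.2 (log2 2.01) and Xpnpep2 (a membrane aminopeptidase) was higher at 27.2 against 4.34 (log2 2.63). Folh1 was lower with H2O2 in both genotypes, at log2 -2.77 and -2.83. Enpep (aminopeptidase A), named after its values were seen, was higher with H2O2 by 1.04 in flox/flox and 0.71 in TβRII-/- PT cells.

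The microvillus scaffold consists of the actin-bundling and tip-link proteins that shape the brush border. The genes of this list that could be tested were mostly called higher in TβRII-/- PT cells. Of 12 genes found 7 were tested, and 6 were higher and 0 lower in untreated TβRII-/- PT cells (median log2 1.87), beside 16.3% higher and 11.8% lower among all genes tested. Of the 6, Myo7b and Cdhr2 passed the filter only through the TβRII-/- groups. Eps8, an actin-capping protein, held 344 against 14.4 normalized counts (log2 4.57), and Pls1, an actin bundler, held 209.9 against 11.9 (log2 4.13). Espn (espin) was higher by 1.06 on the log2 scale. Myo7b, the motor of the tip complex, held 68.3 against 0.717 normalized counts untreated and 99.2 against 0 with H2O2, and no fold is given because the flox/flox libraries were at or near 0. With H2O2, 4 were higher and 0 lower. Ezr, the highest of the list in normalized counts, was not called untreated (9540 against 8601, log2 0.15). Vil1 had 5 counts and Ush1c 1 over all 12 libraries. Ezr, Vil1 and Ush1c were named after their values were seen.

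Genes around Ggt1 in glutathione turnover also split. Of 10 genes of the gamma-glutamyl cycle 9 were tested, and 5 were higher and 2 lower in untreated TβRII-/- PT cells. Ggt7, a relative of Ggt1, was lower at 58.0 against 508 normalized counts (log2 -3.13), and Oplah, the 5-oxoprolinase, was higher at 481 against 45.7 (log2 3.39). Chac2, which degrades intracellular glutathione, was higher by 0.76, and Gclc, the catalytic subunit that starts glutathione synthesis, by 0.68. Gclc was lower with H2O2 in both genotypes, from 8160 to 2640 normalized counts in flox/flox (log2 -1.63) and from 13106 to 4723 in TβRII-/- PT cells (log2 -1.47).

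Of 10 other aquaporins 2 were tested. Aqp5 was higher in untreated TβRII-/- PT cells at 9.88 against 2.87 normalized counts, with no fold given because the flox/flox level was under 3 counts, and the call was lost without the flox/flox untreated replicate 1 or 2 (adjusted p of up to 0.0930). Aqp7 held 17.4 against 13.8 (log2 0.35, not called). Of 11 other gluconeogenesis genes found 9 were tested, and 4 were higher and 0 lower untreated. Khk (ketohexokinase) was higher by 1.05 and Pcx (pyruvate carboxylase) by 0.64 on the log2 scale, the latter at 0.57 and under the fold limit without the flox/flox untreated replicate 3, and Fbp2 (a fructose bisphosphatase) held 19.7 against 0.358 normalized counts. Fbp1 and G6pc1, the hepatic and renal enzymes of the last steps of glucose release, were named after their values were seen and had 0 counts in every library. Of 10 genes of creatine and guanidino compounds 7 were tested, and 3 were higher and 0 lower. These were Arg2 (mitochondrial arginase), at 19.6 against 1.45 normalized counts and given no fold, Ckb (brain-type creatine kinase, log2 2.78) and Ckmt1 (mitochondrial creatine kinase, 2.22). Of 11 inositol genes 10 were tested, and 1 was higher and 0 lower. Akr1a1, an aldehyde reductase that acts downstream of Miox, held 3904 against 3788 normalized counts (log2 0.04), and the inositol transporter Slc5a3 held 1803 against 2182 (log2 -0.28), neither called.

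The label of proximal tubule was checked against further markers. Of 18 proximal tubule solute carriers 5 were tested and 9 had at most 3 counts in every library. Of the 5, 2 were higher and 2 lower in TβRII-/- PT cells in both conditions. The higher were Slc6a19 (174 against 28.2 normalized counts untreated) and Slc7a7 (109 against 43.8). The lower were Slc5a12 (19.8 against 41.7) and Slc5a2 (0 against 14.8), which passed the filter only through the flox/flox groups. All were named after their values were seen. Over all 18 carriers, summed normalized counts were 1498 to 1758 in untreated flox/flox and 1443 to 1528 in untreated TβRII-/- libraries. With H2O2 they were 653 to 759 in flox/flox and 703 to 809.8 in TβRII-/- libraries. Slc4a4, named after its values were seen, had means of 1488, 1152, 566 and 515 in these groups, so the sums mainly followed this gene. Of 15 regulators of proximal tubule genes 10 were tested, and 2 were higher and 2 lower. Hnf4a had 2 and Hnf4g 7 counts over all 12 libraries, and both were named after their values were seen. Lhx1, a nephron progenitor factor, held 33.6 against 0.957 normalized counts, and Vdr, the vitamin D receptor, was lower by log2 -0.67. Ppargc1a, a coactivator of mitochondrial genes, was higher by 2.30 and Maf by 1.65. The cultures therefore carry Lrp2, Aqp1 and Gatm at high level, while many defining transporters and the factor Hnf4a are at or near 0.

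Markers of other cell types moved with genotype as well. Of the 5 epithelial markers all 5 were called higher in TβRII-/- PT cells in both conditions. Among all genes tested, 16.3% were called higher untreated and 17.3% with H2O2. Epcam and Cdh1 passed the filter only through the TβRII-/- groups, so the count of 5 is a description. Summed normalized counts of the list were 12151 to 13893 in untreated flox/flox and 31235 to 33908 in untreated TβRII-/- libraries. With H2O2 they were 15837 to 17273 against 31370 to 32301. Epcam held 664 against 0.371 and Cdh1 (E-cadherin) 1111 against 1.80 normalized counts untreated. Cdh16, named after its values were seen, made up most of the untreated sums, with means of 10306 in flox/flox and 21439 in TβRII-/- PT cells. The loop of Henle and distal list had 0 of 6 genes tested and summed to at most 11.9 in a library, with Calb1 and Kcnj1 at 0. The collecting duct list had 1 of 7 tested, Scnn1g, which was higher, and summed to 11.6 to 21.1 in untreated flox/flox, 36.8 to 43.9 in untreated TβRII-/-, 21.3 to 24.1 in flox/flox H2O2 and 70.6 to 74.8 in TβRII-/- H2O2 libraries, with Aqp2 at 0. The podocyte list, with 3 of 5 tested, summed to 3026 to 3275 in untreated flox/flox and 1061 to 1128 in untreated TβRII-/- libraries, and 1204.6 to 1265 in TβRII-/- H2O2 against 2927 to 3523 in flox/flox H2O2 libraries, with Nphs1 at 0 counts. It had 1 gene lower, Synpo (367 against 2900 normalized counts untreated, log2 -2.98), and 1 higher, Podxl (520.0 against 36.3, log2 3.83). The endothelial list had 1 of 5 tested (Kdr, log2 1.97) and summed to 127 to 138 against 465 to 586 untreated and to 22.7 to 26.4 against 39.3 to 65.6 with H2O2, with Pecam1 at 4 and Cdh5 at 9 counts in all. The fibroblast and mural list, with 5 of 8 tested, had 2 higher (Acta2 at log2 2.41, and Dcn at 5.51 against 1.46 normalized counts) and 2 lower (Col1a1 at log2 -1.56, and Pdgfrb at 2.41 against 16.3 normalized counts), and summed to 14331 to 15454 against 13768 to 15165 untreated and to 9633 to 10346 against 9816 to 10342 with H2O2, with Pdgfra at 15 and Col3a1 at 11 counts in all. Vim, named after its values were seen and not called between genotypes, made up most of these sums. Its means were 14236 in flox/flox and 12053 in TβRII-/- PT cells untreated, and 9649 and 9392 with H2O2. The Dcn call was lost by DESeq2, without a filter on low counts, with counts summed over transcripts, and without flox/flox untreated replicate 1 or 3, TβRII-/- untreated replicate 2 or 3, or TβRII-/- H2O2 replicate 3 (adjusted p of up to 0.172). The leukocyte list had 1 of 6 tested (Cd68, log2 0.78) and summed to 142 to 147 against 231 to 253 untreated and to 141 to 153 against 222 to 273 with H2O2, with Ptprc at 30 and Adgre1 at 0 counts in all. The part of these differences in the values of the members was not tested.

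Genes outside the list followed several members closely over the 12 libraries. Likeness was the Pearson r of log2 library-scaled counts over the 12 libraries, among 12589 genes compared, given as a description, since the libraries share 4 groups and any gene that differs between them in the same order scores high. Ano6 (r = 0.984) was among the genes most like Lrp2, and Rlim (0.983) and Peli1 (0.982) were most like Cubn. Cadm1 (0.994) and Ifngr2 (0.993) were most like Aqp1, with Cadm1 at 5156, 3781, 7515 and 4172 normalized counts in untreated flox/flox, untreated TβRII-/-, flox/flox H2O2 and TβRII-/- H2O2 PT cells. Psmd6 (0.990) and Gapdh (0.984) were most like Gatm. A correlation above 0.9 was found with 1186 genes for Lrp2, 727 for Cubn, 636 for Aqp1 and 532 for Gatm.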

How the data were processed

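RNA of 12 libraries of conditionally immortalized mouse PT cells, in 4 groups of 3, was sequenced by the authors from poly(A) libraries. Per the study's methods, adapters were removed with fastp, reads were aligned with STAR to GRCm38.p6 (GENCODE M23) and counted with featureCounts. The deposited values are raw counts per transcript, in which a read can be counted on several transcripts, so deposited totals (51387170 to 69231661) exceed the number of reads. The methods describe counting per gene, whereas the deposited identifiers are transcripts. Transcripts were matched to mouse symbols by Ensembl identifier: 104820 of 106332 matched, and the remaining 1512 held 1.22% to 1.28% of counts and were left out. Each gene was represented by its transcript with the highest total. Transcript lengths come from a later annotation. Coordinates come from RefSeq on GRCm38.p6.

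Counts were tested with edgeR 4.0.16 (R 4.3.3; quasi-likelihood, TMM, filterByExpr, all 12 libraries, 1 mean per group) with Benjamini-Hochberg adjustment over the 12971 genes tested. On simulated data, 189 of 199 genes changed 2-fold between untreated genotypes were recovered and 4 unchanged genes were called among 12744. The simulation gave every gene the same added spread between replicates and changed far fewer genes than were called here. Its recovery is a check of the code and need not hold for these libraries. Alternatives were DESeq2 1.42.0, other scalings, filters, call rules, fits on the compared groups, counts summed over transcripts, a replicate block and leaving out each library. The members and lists were chosen with earlier results of these data known. All members are named, and from each other functional list the called genes of the untreated genotype comparison with a mean of at least 10 normalized counts, up to the 4 largest folds, or else the 2 of highest mean; marker lists of cell types are given by counts and sums. Some genes of the lists enter the counts but are not reported here by name. No sequence of a protein was used here. Replicates of a group differed by more than sampling noise. Figures were drawn with matplotlib 3.10.9.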

Additional observations from a re-analysis of the deposited data

Results flagged for a closer look

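The H2O2 response of TβRII-/- PT cells was compared with that of flox/flox PT cells by the interaction term of the edgeR fit, on the log2 scale. Of the genes of the lists, 6 passed the call. Among all genes tested, 0.640% were called higher and 1.72% lower for the interaction, so the count of 6 is a description. Among the members, Aqp1 differed by -0.82 (SE 0.09, adjusted p = 4.45e-07), from 1.04 in flox/flox to 0.22 in TβRII-/- PT cells, of which the latter was under the fold limit. Among the regulators, Pax2 differed by 0.64 (SE 0.09, adjusted p = 1.94e-05), from -0.16 to 0.48, and Ppargc1a by 0.80 (SE 0.19, adjusted p = 0.00635), from -0.34 to 0.45. Among the podocyte markers, Podxl differed by -0.70 (SE 0.20, adjusted p = 0.0239), from 0.46 to -0.25, and Synpo by 0.68 (SE 0.10, adjusted p = 4.54e-05), from 0.07 to 0.74. The endothelial marker Kdr differed by -0.84 (SE 0.27, adjusted p = 0.0446), from -2.57 to -3.41. Of these, Aqp1 kept the call under all 19 alternatives. Without 1 library the value fell under the fold limit for Pax2 (0.57 without flox/flox untreated replicate 1 or 2) and Synpo (0.56 without flox/flox H2O2 replicate 3), and Ppargc1a was at 0.53 with an adjusted p of 0.0501 without flox/flox H2O2 replicate 2. Podxl lost the call with counts summed over transcripts and without flox/flox untreated replicate 2, flox/flox H2O2 replicate 1 or 3, or TβRII-/- H2O2 replicate 2 (adjusted p of up to 0.0671). Kdr lost it under library totals and without flox/flox untreated replicate 2 or 3, TβRII-/- untreated replicate 1, any flox/flox H2O2 replicate, or TβRII-/- H2O2 replicate 1 or 2 (adjusted p of up to 0.139). Groups of 3 libraries are too small for a check of single libraries that stand apart.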

How the results depend on the processing

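Of 672 alternative values of the tested members, 629 kept their direction and side of the call, 12 lost the call, 3 gained it and 28 changed sign. The untested Dpp4, Miox and Pck1 have no such values. Sign changes were found for differences that were not called. Over the fits that left out 1 library, Anpep ranged from -0.63 to 0.57 (genotype, untreated), from -0.20 to 0.36 (genotype, with H2O2) and from -0.55 to 0.64 (interaction), Lrp2 from -0.036 to 0.17 (H2O2, flox/flox) and from -0.14 to 0.070 (interaction), Cubn from -0.10 to 0.19 (interaction) and Gatm from -0.074 to 0.075 (interaction). Counts summed over transcripts gave Anpep -0.013 between genotypes with H2O2, and Gatm in the interaction was -0.0082 by DESeq2 and -0.0077 by edgeR with DESeq2's size factors. For the genes chosen by the naming rule from the functional lists, the 1310 values of called differences kept their direction, and 36 lost the call. Other called list genes, among them Dcn, Podxl, Synpo, Kdr and Pax2, are not part of the 1310 values.

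Without a fold limit, 8387 and 8617 genes were called between genotypes untreated and with H2O2, 5392 and 5135 for H2O2 (flox/flox, then TβRII-/-) and 1321 for the interaction, against 3636, 3985, 1069, 1080 and 306. The members called with H2O2 in TβRII-/- PT cells then numbered 3, against 1, and leaving out 1 library gave 0 to 1. Requiring 10 counts in every library, which removes Ggt1, Alpl and Anpep from the test, left 1 member called for H2O2 among the flox/flox libraries and 0 among the TβRII-/- libraries.

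Replicate numbers did not pair the samples: of 18 same-numbered pairs 0 had a correlation of deviations over 0.1 (-0.10 to 0.06). With the replicate block the counts of genes called were 3623, 3969, 1047, 1069 and 294, and those of members 4, 4, 4, 1 and 1. Low counts limit Anpep, Alpl and Ggt1 in TβRII-/- PT cells, and Dpp4, Miox and Pck1 throughout.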
